A study of Homo sapiens with 6 samples.

Results

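The transcripts of 10 genes of the Hippo pathway were followed in RNA-sequencing values of H1975 cells: the co-activators YAP1 (the protein YAP) and WWTR1 (the protein TAZ), the transcription factors TEAD1, TEAD2, TEAD3 and TEAD4, the kinases LATS1, LATS2 and STK3, and the upstream activator NF2. They were chosen by symbol, and all 10 were found among the 27216 rows of the deposited expression table. Both these 10 genes and the gene lists used below were chosen with earlier results of these data known. The row named TAZ was not used, because TAZ is also an older symbol of tafazzin, and the TAZ of the Hippo pathway is listed as WWTR1. H1975 is a human non-small cell lung cancer (NSCLC) line that depends on mutant EGFR, and its genotype is labelled WT, with no engineered allele. The 3 parental samples are labelled as 0 hours of osimertinib (Osi), an EGFR tyrosine kinase inhibitor, and their columns are named for DMSO, so that it is not clear whether the cells were untreated or kept in the solvent. The 3 adapted samples received 1000 nM Osi for 72 hours, and apoptotic cells were washed off before lysis, so that only the cells that stayed attached were measured. Osi, time in culture and the loss of detached cells cannot be told apart in this comparison.

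Hippo signaling is a kinase cascade that holds back growth. STK3 and its paralogue STK4, with the scaffold SAV1, activate LATS1 and LATS2 with their MOB1 partners, and LATS kinases phosphorylate YAP and TAZ, which keeps them in the cytoplasm and marks them for breakdown. Unphosphorylated YAP and TAZ enter the nucleus and, having no DNA-binding domain of their own, act through TEAD factors. NF2, also called merlin, sits at the cell cortex and brings LATS kinases to the membrane. The pathway is set mostly by phosphorylation and localization of its proteins, which transcript levels do not measure.

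Levels are given as log2(FPKM + 1), FPKM being a fragment number corrected for the length of the transcript and for the size of the library. Because FPKM is scaled to length, levels of different genes were compared on that scale. The unit of the deposited values is not named and was read as FPKM, so comparisons between genes rest on that reading. The labels also describe RNase R digestion, which removes linear RNA, and how this bears on the levels is not known. No read depth is known, so the spread between the 3 samples of a group is the only error. Nothing in the labels says that the samples came from separate cultures, and p-values then measure a spread that may be technical. The FPKM of a sample added up to 375342 at the lowest and 387753 at the highest. Samples of a group correlated across rows at 0.991 or more, with adapted replicate 1 somewhat apart from adapted replicates 2 and 3 (0.991 with each, against 0.996 between those 2). All 7 epithelial markers were high in every sample, EPCAM, CDH1, 4 keratins and EGFR lying between 7.08 and 10.60 on the log2(FPKM + 1) scale. The 4 keratins differed between the groups without overlap, and not all in the same direction. The mean of KRT7 was 9.39 in parental and 10.47 in adapted samples. KRT8 (9.82 and 9.54), KRT18 (9.74 and 9.17) and KRT19 (9.87 and 9.12) were lower in adapted samples. EPCAM, CDH1 and EGFR overlapped. Of the immune markers, PTPRC and CD3E were at 0.08 or below in all samples, LYZ at 0.46 or below, and CD68, a lysosomal protein found in many cells, was 6.25 in parental and 4.4 in adapted cells. The summed FPKM of that list was 73.9 to 76.3 in parental and 14.6 to 29.6 in adapted samples. For 3 endothelial markers the sum was 1.13 to 1.86 against 1.42 to 3.47, with PECAM1 higher in parental and CDH5 higher in adapted samples. For 5 fibroblast markers it was 3.04 to 3.16 against 8.60 to 9.33, mostly COL1A1. LUM and COL3A1 were low but higher in each adapted than in any parental sample, LUM at 0.06 or below in parental and between 0.53 and 0.73 in adapted samples and COL3A1 at 0.02 or below and between 0.11 and 1.37, while DCN and PDGFRB stayed at 0.11 or below and overlapped. In bulk RNA, fewer cells of a type and less RNA per cell cannot be told apart, and the part of these shifts in the results on Hippo genes was not tested.

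Of the 10 genes, 7 rose and 2 fell in adapted cells past an adjusted p of 0.05 (limma, adjusted over all 12656 rows tested), and YAP1 was the 1 that did not pass. The background is high in this comparison, since 56.9% of all rows tested passed, 30.7% higher and 26.2% lower in adapted cells. The groups did not overlap in those 9 genes, against 66.3% of all rows tested. The median log2 fold change of the 10 was 0.40, and that of all rows tested was 0.03. The named changes ranged from a fall of STK3 to 0.751 times its parental FPKM to a rise of NF2 to 2.34 times.

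YAP1, the best known effector of the pathway, had the highest level of the 10 genes, and no change was detected. It lies at chr11:102110461-102233423 on the plus strand (GENCODE v29, GRCh38). On the log2(FPKM + 1) scale it was 5.68, 5.61 and 5.52 in the parental samples and 5.58, 5.70 and 5.62 in the adapted samples. The groups overlap fully. The log2 fold change was 0.03 (95% interval -0.12 to 0.19, adjusted p = 0.709 by limma), so that a rise of more than about 0.19 or a fall of more than about 0.12 lies outside the interval. In FPKM, parental YAP1 was 47.7 ± 2.75 and adapted YAP1 48.7 ± 2.05 (SD, n = 3 each). Only 5.99% of the rows tested had a smaller absolute fold change than YAP1.

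WWTR1, which encodes TAZ, rose. It lies at chr3:149517235-149736714 on the minus strand. Its log2(FPKM + 1) was 4.58, 4.47 and 4.45 in parental and 5.03, 4.88 and 4.82 in adapted samples. Every adapted sample lay above every parental one. The log2 fold change was 0.41 (SE 0.08, adjusted p = 0.00284 by limma), and FPKM went from 21.7 ± 1.11 to 29.2 ± 2.27 (SD, n = 3 each).

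The paralogues thus differed in their change, and the balance between their transcripts moved toward WWTR1. The share of WWTR1 in the summed FPKM of YAP1 and WWTR1 was 31.3%, 30.6% and 31.8% in parental and 40.3%, 35.9% and 36.1% in adapted samples. YAP1 transcripts remained the larger part in each sample. The log2 ratio of WWTR1 to YAP1 went from -1.14 ± 0.04 to -0.74 ± 0.15 (SD, n = 3 each), with no overlap (exact permutation test, two-sided p = 0.1, the lowest that 3 samples against 3 can give).

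The TEAD factors, the DNA-binding partners of YAP and TAZ, all rose, in unequal measure. TEAD2 (chr19:49340595-49362457, minus strand) was 2.92, 3.19 and 2.99 in parental and 3.81, 3.98 and 4.07 in adapted samples on the log2(FPKM + 1) scale. The lowest adapted value was well above the highest parental value, with a log2 fold change of 0.92 (SE 0.10, adjusted p = 2.47e-04 by limma). TEAD4 (chr12:2959330-3040673, plus strand) was 3.85, 3.81 and 3.91 in parental and 4.72, 4.63 and 4.82 in adapted samples, again without overlap. Its log2 fold change was 0.87 (SE 0.07, adjusted p = 6.68e-05 by limma). In FPKM, TEAD2 and TEAD4 stood at 2.02 and 1.89 times the parental mean.

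TEAD1 and TEAD3 moved less. TEAD1 (chr11:12674591-12944483, plus strand) was 4.37, 4.13 and 4.10 in parental and 4.45, 4.69 and 4.63 in adapted samples. Parental replicate 1 came within 0.1 of adapted replicate 1, but the groups did not overlap, and the log2 fold change was 0.39 (adjusted p = 0.0116 by limma). TEAD3 (chr6:35473597-35497076, minus strand) was 3.06, 3.11 and 3.07 in parental and 3.27, 3.42 and 3.57 in adapted samples. The adapted samples were more spread than the parental ones but all higher, with a log2 fold change of 0.34 (adjusted p = 0.0131 by limma).

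Summed over the family, TEAD FPKM was 47.0, 45.3 and 44.5 in parental and 67.9, 73.1 and 77.7 in adapted samples. The log2 of the sum rose from 5.51 ± 0.04 to 6.19 ± 0.10 (SD, n = 3 each), without overlap (exact permutation test, two-sided p = 0.1, the lowest possible). The make-up of the family shifted as well. TEAD1 was the most abundant TEAD in each parental sample, with 38.2% ± 3.14 of the sum, and held 31.7% ± 1.90 in adapted cells (SD, n = 3 each). TEAD4 went from 29.6% ± 1.62 to 35.0% ± 2.40. It was above TEAD1 in adapted replicates 1 and 3 and below it in adapted replicate 2, so that the order of TEAD4 and TEAD1 in adapted cells was not settled. The share of TEAD2 was 15.8% ± 2.01 and then 19.9% ± 0.652, and that of TEAD3 was 16.4% ± 0.636 and then 13.3% ± 0.661. The groups did not overlap for any of the 4 shares (exact permutation test, two-sided p = 0.1 for each, the lowest possible; shares of 1 sum depend on each other).

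**Figure D1:**
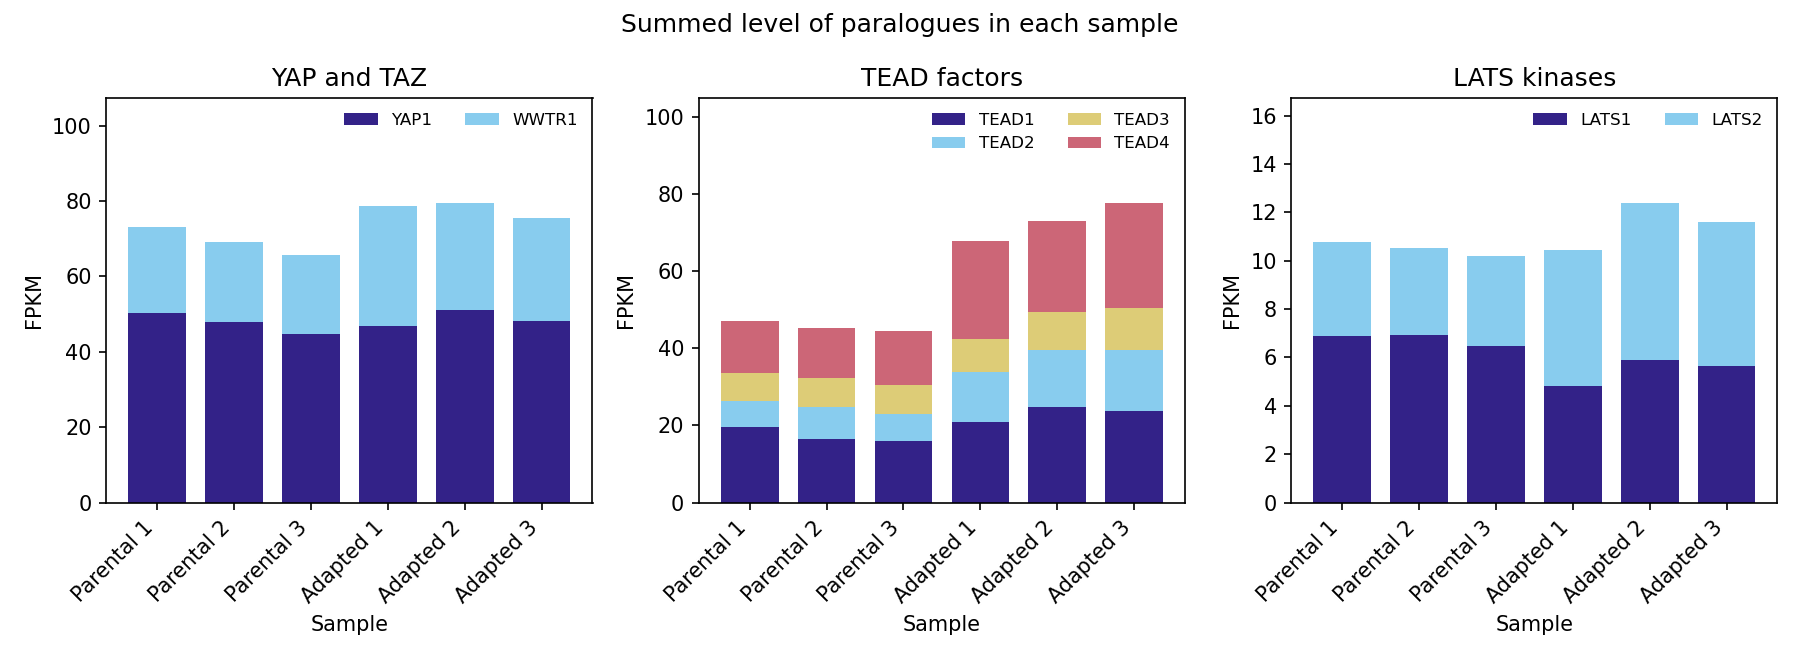
FPKM of paralogues stacked in each of the 6 samples, for YAP1 and WWTR1 (left), TEAD1 to TEAD4 (middle) and LATS1 and LATS2 (right). The TEAD sum stands at 44.5 to 47.0 in parental and 67.9 to 77.7 in adapted samples, and the LATS2 part grows while the LATS1 part shrinks.

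The LATS kinases, which phosphorylate YAP and TAZ, changed in opposite directions. LATS2 (chr13:20973032-21061547, minus strand) was 2.29, 2.21 and 2.24 in parental and 2.72, 2.90 and 2.80 in adapted samples on the log2(FPKM + 1) scale. All adapted samples were higher, and the log2 fold change was 0.56 (SE 0.08, adjusted p = 6.77e-04 by limma). LATS2 is known to be transcribed in response to YAP and TAZ, as a feedback on them. LATS1 (chr6:149658153-149718256, minus strand) was 2.98, 2.98 and 2.90 in parental and 2.55, 2.79 and 2.73 in adapted samples. All adapted samples were lower, with a log2 fold change of -0.27 (SE 0.08, adjusted p = 0.029 by limma). The call of LATS1 was lost when any 1 of the parental samples was left out (adjusted p = 0.0938 without replicate 1, 0.0993 without replicate 2 and 0.0597 without replicate 3, limma), with a log2 fold change of -0.25 to -0.29.

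The log2 ratio of LATS2 to LATS1 went from -0.85 ± 0.07 to 0.14 ± 0.07 (SD, n = 3 each), a difference of 0.99 without overlap (exact permutation test, two-sided p = 0.1, the lowest possible). LATS1 was the more abundant LATS transcript in each parental sample and LATS2 in each adapted sample. LATS2 held 35.7% ± 1.13 of the summed LATS FPKM in parental and 52.5% ± 1.13 in adapted cells. The sum itself was 10.8, 10.5 and 10.2 in parental and 10.4, 12.4 and 11.6 in adapted samples, so that the summed LATS level of the groups overlapped while its make-up did not.

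STK3, which encodes the kinase MST2 upstream of LATS, fell. Its log2(FPKM + 1) was 3.55, 3.64 and 3.55 in parental and 3.20, 3.20 and 3.22 in adapted samples. The groups were far apart relative to their spread, with a log2 fold change of -0.37 (SE 0.06, adjusted p = 0.00163 by limma). STK4, its paralogue MST1, was 3.39, 3.42 and 3.37 in parental and 3.33, 3.24 and 3.15 in adapted samples (log2 fold change -0.16, adjusted p = 0.089 by limma), which did not pass the threshold unless adapted replicate 1 was left out (-0.20, adjusted p = 0.0189). The log2 ratio of STK3 to STK4 went from 0.20 ± 0.03 to -0.04 ± 0.11 (SD, n = 3 each, exact permutation test, two-sided p = 0.1, the lowest possible). The summed FPKM of both kinases was 20.5 ± 0.583 in parental and 16.7 ± 0.505 in adapted cells.

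Of the 4 other genes of the core cassette, STK4 included, none rose and 1 fell, a share (25%) below the 56.9% of all rows. SAV1, the scaffold of STK3 and STK4, was 5.19, 5.16 and 5.07 in parental and 4.64, 4.80 and 4.96 in adapted samples and had a log2 fold change of -0.34 (adjusted p = 0.0135 by limma), a call that was lost without parental replicate 1 (adjusted p = 0.0541). MOB1A and MOB1B, the co-activators of LATS kinases, had log2 fold changes of -0.11 (adjusted p = 0.231) and 0.17 (adjusted p = 0.245), with overlap between groups in both. Without adapted replicate 1, MOB1B was past the threshold, at 0.27 (adjusted p = 0.0349).

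NF2, the membrane-bound activator of LATS kinases, changed most of the 10 genes. It lies at chr22:29603556-29698598 on the plus strand. Its log2(FPKM + 1) was 3.0, 3.07 and 2.94 in parental and 4.11, 4.05 and 4.20 in adapted samples. The gap between the groups exceeded the range within either of them several times over. The log2 fold change was 1.12 (SE 0.07, adjusted p = 2.49e-05 by limma), and FPKM went from 7.02 ± 0.385 to 16.4 ± 0.913 (SD, n = 3 each). Of the rows tested, 91.5% had a smaller absolute fold change.

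Ordered by FPKM, the parental levels ran from YAP1 through WWTR1 (21.7), TEAD1 (17.5), TEAD4 (13.5), STK3 (11), TEAD3 (7.46), TEAD2 (7.20), NF2 (7.02) and LATS1 (6.75) to LATS2 (3.75). The ranges of TEAD3, TEAD2, NF2 and LATS1 overlapped from each to the next, so that their order is not resolved, and the other neighbours were separate. In adapted cells the order was YAP1, WWTR1 (29.2), TEAD4 (25.5), TEAD1 (23.1), NF2 (16.4), TEAD2 (14.6), TEAD3 (9.74), STK3 (8.23), LATS2 (6.02) and LATS1 (5.46). There the ranges of WWTR1 and TEAD4, of TEAD4 and TEAD1, of NF2 and TEAD2, and of LATS2 and LATS1 overlapped. NF2 had gone from place 8 to place 5 and STK3 from place 5 to place 8. By the root mean square difference of row-centred log2 values over the 6 samples, the named genes most like YAP1 were GALNT1 (0.0222), CDC34 (0.0234) and AFF4 (0.0242), none of them past the threshold. Those most like WWTR1 were TRADD (0.0201), ALDH4A1 (0.0227) and PIP4P1 (0.0242), with log2 fold changes of 0.40, 0.44 and 0.39.

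Of 52 other genes of the pathway, 48 were tested, and 22 rose and 9 fell past the threshold, 64.6% of those tested beside 56.9% of all rows. MAP4K1, DCHS1, WTIP and VGLL2 were below the filter on low values. FAT4, VGLL1 and VGLL3 are counted among those that rose although they passed that filter only through the adapted samples. The median log2 fold change of the 48 was 0.21. The direction differed by role, which is described here by counts alone.

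The scaffolds and polarity proteins, which hold the pathway at the membrane and junctions, were mostly higher. Of 15 tested, 11 rose, FAT4 included, none fell and 4 did not pass, with a median log2 fold change of 0.85. The share past the threshold was 73.3%, beside 56.9% of all rows tested. AMOT, which tethers YAP and TAZ outside the nucleus, was 1.82, 1.87 and 1.75 in parental and 3.26, 4.77 and 4.81 in adapted samples (log2 fold change 2.47, adjusted p = 0.00135 by limma). Adapted replicate 1 was far below the other 2, and the fold change was 2.98 without it. FAT4, an atypical cadherin that passed the filter on low values only through the adapted samples, rose by 1.71 (adjusted p = 5.42e-06 by limma), or by 2.56 with a pseudocount of 0.1. AMOTL2, a relative of AMOT, rose by 1.60 (adjusted p = 5.68e-06 by limma). WWC1, or KIBRA, its relatives WWC2 and WWC3, and FRMD6 were picked out after their values were seen, as genes that act beside NF2 or are related to those that do. WWC1 was 4.44, 4.45 and 4.48 in parental and 5.29, 5.51 and 5.60 in adapted samples, and FRMD6 was 2.97, 2.92 and 2.80 against 4.38, 4.44 and 4.24. The log2 fold changes of WWC1 (1.01), WWC2 (0.85) and WWC3 (0.65) were below the 1.12 of NF2, and that of FRMD6 (1.46) was above it.

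The TEAD cofactors of the vestigial-like family bind TEADs at a surface that overlaps with that of YAP and TAZ. They are given as values and not as a count of their own, because VGLL1 and VGLL3 passed the filter on low values only through the adapted samples. VGLL1 was 0.32, 0.34 and 0.31 in parental and 3.38, 4.22 and 4.59 in adapted samples, from nearly silent to an FPKM of 16.7. Its log2 fold change was 3.74 (adjusted p = 4.65e-05 by limma) and became 5.5 with a pseudocount of 0.1. VGLL3 was 0.62, 0.62 and 0.55 in parental and 2.34, 2.63 and 2.32 in adapted samples, with a log2 fold change of 1.83 that became 2.87 with a pseudocount of 0.1. VGLL4, a repressor of TEAD activity, was the most abundant of the 3 in each sample but adapted replicate 3, where VGLL1 was higher, and rose by 0.31 (adjusted p = 0.0112).

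The kinases that act on LATS in parallel to STK3 and STK4 went both ways, with 2 of 9 rising and 3 falling, a share (55.6%) near the 56.9% of all rows. TAOK2 (0.49) and MAP4K5 (0.43) rose, and TAOK3 (-0.68), MAP4K4 (-0.48) and MINK1 (-0.31) fell, in log2 fold change (limma, adjusted p of 0.00911 or less). Among proteins that inhibit the kinases, 3 of 8 rose and 2 fell, again a share (62.5%) close to that of all rows. Those that rose include the LIM proteins AJUBA (1.0) and LIMD1 (0.46), which sequester LATS, while STRN3 (-0.72) and SLMAP (-0.40), parts of a phosphatase complex that acts on STK3 and STK4, fell. Of 4 RASSF proteins, binding partners of STK3 and STK4, none rose, and RASSF6 (-0.60) and RASSF5 (-0.29) fell. That share, 50%, lay below the 56.9% of all rows. The call of RASSF5 was lost in 5 of the 6 fits that left out 1 sample. Of 5 genes of protein turnover, 80% passed the threshold, beside 56.9% of all rows. The casein kinases CSNK1D (0.36) and CSNK1E (0.27) and the ubiquitin ligase subunit FBXW11 (0.32), which act in the breakdown of YAP and TAZ, rose. The ligase ITCH (-0.53), which targets LATS1, fell. The call of CSNK1E was lost without parental replicate 1 (adjusted p = 0.0513).

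**Figure D2:**
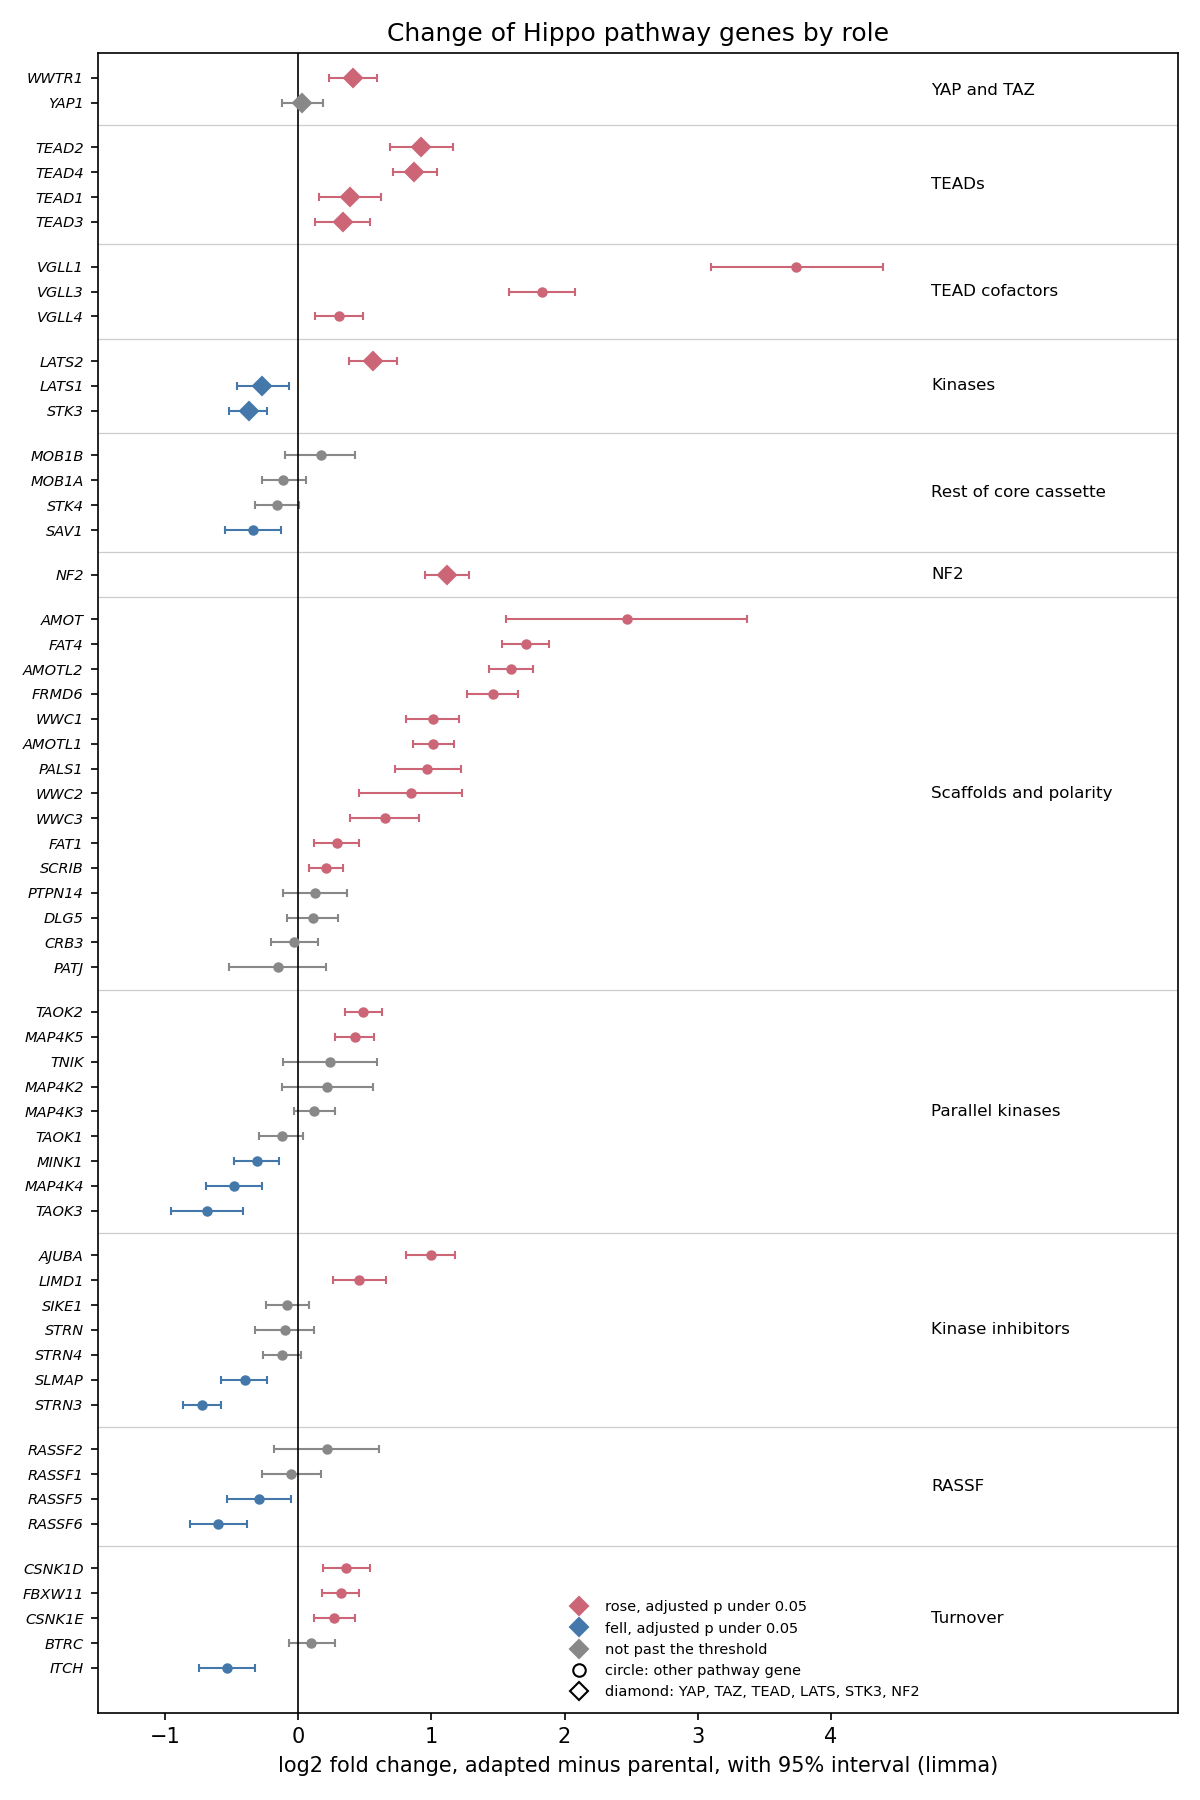
Log2 fold change of the tested pathway genes reported here, adapted minus parental, with its 95% interval from limma, grouped by role (diamonds: the 10 genes of the report, circles: other pathway genes). TEADs, TEAD cofactors, NF2 and most scaffolds lie to the right of 0, STK3, LATS1 and SAV1 lie to the left, and the interval of YAP1 spans 0.

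A further list held 22 genes known as direct targets of YAP and TAZ, of which 21 were tested (FOXF2 was near 0 in all samples). The activity of YAP and TAZ was not measured, and whether they caused the changes of these transcripts was not tested. LATS2 belongs to this list as well as to the 10 genes, and AMOTL2 and PTPN14 to the pathway list. In all, 15 rose and 1 fell past the threshold, 76.2% of those tested beside 56.9% of all rows, with a median log2 fold change of 1.13. ANKRD1, AXL and RBMS3 are counted among them although they passed the filter on low values only through the adapted samples. CCN1, listed as CYR61, a secreted matricellular protein, was 7.44, 7.44 and 7.41 in parental and 9.44, 9.55 and 9.63 in adapted samples. That is a mean FPKM of 172 against 743 with a log2 fold change of 2.11 (adjusted p = 2.17e-06 by limma). CCN2, listed as CTGF, a relative of CCN1, was 1.03, 1.27 and 1.08 in parental and 4.50, 4.11 and 3.96 in adapted samples. ANKRD1, an ankyrin repeat protein, was 0.76, 0.60 and 0.50 and then 5.33, 6.10 and 6.17, and TGFB2, a TGF-beta ligand, 2.84, 2.88 and 2.75 and then 5.69, 6.0 and 6.08. CCDC80 rose by 1.79 and FJX1 by 1.68, and in both the value of adapted replicate 1 was the highest. NT5E, a surface nucleotidase, was the 1 target that fell (-1.14, adjusted p = 9.17e-04). IGFBP3 (0.01), GADD45A (0.01), NUAK2 (0.07), PTPN14 (0.13) and DOCK5 (0.22) did not pass the threshold. The rises of LATS2 and AMOTL2 were thus smaller than those of CCN1, CCN2, ANKRD1 and TGFB2 and larger than those of these 5 genes, as measured in log2 fold change.

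TEAD factors bind the letters GGAATG, and promoters were searched for them on both strands (CATTCC on the other). The windows run from 250 bases before to 50 bases after a gene's start in RefSeq (GRCh38.p14). The letters occurred in 14.0% of all 34943 windows. Of the 22 targets, 16 had a promoter entry, with 18 windows, and 9 windows held the letters (50%). The list holds known targets, so this share does not depend on the levels measured here. FOXF2, which was not tested, was among those with the letters. CCN2 held them at -169, -104 and -95, counted from the start to the first base of the match, ANKRD1 at -220 and -128, and TGFB2 at -185 on the other strand. Stretches of these promoters, from the genes with matches that rose most, are given 5′ to 3′ on the gene's strand with the matches in capitals, at chr6:131951458-131951552 (minus strand), chr10:90921198-90921317 (minus strand) and chr1:218345136-218345170 (plus strand).
CCN2: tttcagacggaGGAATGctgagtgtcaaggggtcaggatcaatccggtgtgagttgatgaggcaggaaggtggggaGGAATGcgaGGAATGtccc
ANKRD1: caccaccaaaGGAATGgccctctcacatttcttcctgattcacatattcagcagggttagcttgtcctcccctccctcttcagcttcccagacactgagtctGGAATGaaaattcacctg
TGFB2: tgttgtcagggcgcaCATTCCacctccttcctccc
The letters also occurred in the windows of NUAK2 and PTPN14, which did not pass the threshold, and were absent from those of CCDC80, FJX1, RBMS3, F3 and MYOF, which rose, so that matches and calls did not go together in each case. Of the 10 genes, 7 had an entry (YAP1, WWTR1, TEAD2, TEAD3, LATS1, LATS2 and NF2), with 11 windows. Matches were found in 2 of these (18.2%). In that of YAP1, whose level did not pass the threshold, the match was at -162. In that of LATS2, whose level rose, the match began at base 10, counting the start as base 1. None was found in the windows of WWTR1, TEAD2, TEAD3, LATS1 or NF2. The AP-1 letters TGANTCA, which lie in many enhancers bound by TEADs and which read alike on both strands, occurred in 7.72% of all windows and overlapped with no TEAD match in the genes searched here. The middle letter N was left free in the search. Matches were found in 1 of the 7 genes, LATS1 (TGAATCA), and in 2 of the 16 targets, ANKRD1 (TGATTCA) and F3 (TGAATCA and TGAGTCA). A match is a description of the letters and not a bound site.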

How the data were processed

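The authors deposited 1 table of log2 values with 1 column per sample. The unit is not named. It was read as log2(FPKM + 1) because 27069 of the 27216 rows return to numbers of 6 decimals. This alone does not set FPKM apart from another linear unit. Another 147 rows are off that grid, and none of the 10 genes, the other pathway genes or the target genes tested is among them. The submitters' processing notes name hg38, Bowtie2 2.1.0, STAR and edgeR with no role, and the methods name DESeq2, which needs counts, so the log2 values were tested with limma. The labels describe RNase R digestion, which removes linear RNA, before library preparation, and the methods do not; how this bears on the values is not known. Columns named DMSO were matched to the 0 h samples by replicate number.

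Rows with a mean of at least 1 (12656) were fitted with limma 3.58.1 in R 4.3.3 (lmFit, then eBayes with its trend option) without pairing, p-values being adjusted by Benjamini-Hochberg over all of them at a threshold of 0.05. The fit was tested on simulated data. Ratios, sums and shares of FPKM were compared by two-sided exact permutation tests (scipy 1.17.1, Python 3.11.15). Locations are from GENCODE v29 and promoters from RefSeq. The 10 genes and the lists were chosen with earlier results of these data known. The text names all 10 genes, the 4 other core genes, in each role of the pathway list up to 3 genes that rose and 3 that fell most past the threshold, the 6 targets that rose most and any that fell, and for YAP1 and WWTR1 the 3 most similar rows. Genes named beyond this rule are the marker genes, WWC1, WWC2, WWC3, FRMD6, targets named for the filter or the promoter search, and genes listed as not tested or not past the threshold. Alternatives were other normalizations, pseudocounts, filters and variance models, a replicate block, fits without 1 sample, and fits without rows off the grid or named NewGene_. Results for 2 genes of the lists are not reported here one by one, though the list counts and sums include them.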

Additional observations from a re-analysis of the deposited data

How the results depend on the processing

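All 10 genes kept the direction of their change under each alternative except YAP1, whose log2 fold change was -0.012 without parental replicate 3 and -8.7e-04 without adapted replicate 2 (-0.012 to 0.07 across the fits that left out 1 sample). Of the 10, 9 were past the threshold, and 7 to 9 under the alternatives (8 to 9 across the fits that left out 1 sample). With a mean of at least 3, 8 of the 10 were tested, LATS1 and LATS2 being left out. The other pathway genes past the threshold numbered 31, and 27 to 34 across the fits that left out 1 sample. The targets past the threshold numbered 16, and 16 to 17 across the same fits. The count over all rows was 7202, and 5778 to 8371 across those fits. It was 4532 with a mean of at least 3, where fewer rows were tested (7693). Under that filter 24 of 36 other pathway genes passed, and their median log2 fold change was 0.125 in place of 0.212. Of the targets, 11 of 16 passed, with a median of 0.675 in place of 1.135. Another scaling moved the median of all rows by less than 0.1. Read after the data were seen, 32 of 37 other named genes stayed on 1 side of the threshold under every alternative, and none reversed. RASSF5 also lost its call when low rows were kept (adjusted p = 0.0846, limma).

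Same-numbered samples did not deviate together (correlations of -0.051, -0.031 and -0.020 across rows). No pairing by replicate number was thus seen, which does not show how the samples were prepared. With the replicate number as a block, 6761 rows, 8 of the 10 genes, 31 other pathway genes and 16 targets passed, and LATS1 had an adjusted p of 0.051. An exact sign-flip test over the 3 numbered pairs gives no p below 0.25, and the ratios, sums and shares kept their direction under it and under the other alternatives tried. Without counts, no depth limit can be given.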
